A study of Rattus norvegicus with 19 samples.

Results

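The genes described here were 10 components of the circadian clock, the cell-autonomous oscillator that gives heart muscle its daily rhythm of transcription. They were chosen by their symbols in the count files, as an activator arm of 3 genes (Arntl, Clock and Npas2) and a repressor and output arm of 7 genes (Per1, Per2, Per3, Nr1d1, Dbp, Tef and Ciart). All 10 were among the 17455 gene symbols in the files, and all 10 were among the 12388 genes that passed the filter on low counts and were tested. The question put to the data was whether the arms moved against each other between groups, as they do when hearts are taken at different times of day or when the phase of the clock differs.

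The libraries came from left ventricles of Sprague-Dawley rats, wild type by their label and 24 weeks old at the start, with 1 library per heart, and fell into 7 groups. Heart failure with preserved ejection fraction (HFpEF) had been induced over 5 weeks by feeding lard (60% of kilocalories as fat) and giving L-NAME, which blocks nitric oxide synthase, in the water at 0.5 g/L. Control rats ate normal chow and received no L-NAME. Control 5w (3 libraries) and HFpEF (3 libraries) were taken at week 5. At week 9, after a further 4 weeks, came control 9w (3 libraries) and 4 groups of rats in which HFpEF had been induced. Of these, the untreated group (3 libraries) was gavaged with PBS alone, EMPA (2 libraries) with empagliflozin, an inhibitor of the sodium-glucose cotransporter SGLT2, at 0.35 g/kg/day, PFD (2 libraries) with pirfenidone, an antifibrotic drug, at 0.3 g/kg/day, and EMPA + PFD (3 libraries) with both. The authors left out 1 EMPA and 1 PFD sample because their files were corrupted. Total counts per library ran from 7430539 to 13017754 (median 9951011). The least counted member in any library was Ciart, with 12 to 393 counts, and the other 9 members had at least 48 counts in each library. The labels name biological replicates, so p-values of the main model rest on the spread between hearts. This spread was estimated for each gene over all 7 groups together, not within the groups compared alone. The biological coefficient of variation was 0.257.

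Some libraries differed from one another against their labels. Every heart is labelled male, and the methods state that RNA came from male hearts, while the groups of the whole study held both sexes. The Y-linked gene Eif2s3y was nevertheless at 0 counts in the untreated and PFD libraries and in HFpEF replicates 1 and 3, 7 libraries in all, and at 613 to 1321 counts in the remaining 12. LOC100911498, a locus without a gene name, had 13032 to 27077 counts in the same 7 libraries and at most 12 in the others. All control 9w, EMPA and EMPA + PFD libraries therefore differed from all untreated libraries in both genes, and HFpEF replicate 2 stood apart from its group. RT1-CE16, a class I gene of the major histocompatibility complex, had at most 3 counts in control 5w, HFpEF and EMPA and 308 to 922 counts in the other groups. Myl4, an atrial myosin light chain, had 19668 counts in untreated replicate 2, 13853 in control 9w replicate 3, 2702 in control 9w replicate 1 and 24 to 436 elsewhere. All libraries were kept under their labels, and values that changed without some of them are given beside the results.

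In the core clock, the proteins of Arntl (BMAL1) and Clock pair on E-box sequences of DNA and switch on the Per and Cry genes, whose products return to the nucleus and inhibit the pair. Nr1d1 (REV-ERB alpha) is a nuclear receptor that represses Arntl, and Dbp and Tef are basic leucine zipper activators under E-box control that pass the rhythm on to other genes. Because of this wiring, Arntl and Npas2 peak at about the opposite time of day from Dbp, Tef, Per3 and Ciart in peripheral tissues such as the heart.

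The lights were on a fixed cycle of light and dark, but the time of day at which each heart was taken is not given in the labels or in the methods. Sampling time, clock phase and group can therefore not be told apart in any of the comparisons below. In bulk tissue, a smaller number of cells of a type and less RNA per cell cannot be told apart either.

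Over all 7 groups, 6 of the 10 genes differed in the quasi-likelihood test of edgeR, adjusted by Benjamini-Hochberg, with adjusted p-values of 0.00114 for Tef, 0.00134 for Per1, 0.00171 for Ciart, 0.00304 for Per3, 0.00520 for Dbp and 0.0109 for Per2. The share called among all tested genes was 50.3%, so 6 of 10 is near the background and is no result about the members, and voom called all 10 beside 90.9% of all genes. All 6 were of the repressor and output arm. Of the activators, Npas2 had an adjusted p of 0.0514, Arntl 0.0983 and Clock 0.189 in the same test, and Nr1d1, the remaining member, had 0.133. Without EMPA + PFD replicate 1, Arntl (adjusted p = 0.000867), Clock (0.0202) and Npas2 (0.00327) passed the same test as well, Arntl also passed it without EMPA + PFD replicate 3 (0.0420), and Nr1d1 without HFpEF replicate 2 (0.00300). The share of the variance in log2 CPM (counts scaled to a common library total after TMM normalization) that lay between group means was lowest for Nr1d1 (45.9%) and Clock (54.3%) and highest for Tef (84.3%) and Per1 (87.5%). With 7 groups of 19 libraries, part of the variance lies between group means even without a group effect. The matching share over all genes is not given here, so these values only rank the members.

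Among the activators, Arntl encodes the obligatory partner of Clock and Npas2. At week 5 its level was 32.6, 59.2 and 62.4 CPM in control 5w and 49.5, 84.0 and 39.2 CPM in HFpEF. At week 9 it was 14.1, 17.5 and 16.5 CPM in control 9w and 70.3, 76.0 and 71.0 CPM in untreated. The treated hearts had 60.1 and 65.6 CPM under EMPA, 61.7 and 76.7 CPM under PFD and 73.6, 12.2 and 5.01 CPM under EMPA + PFD. Low values were thus seen in all 3 control 9w libraries and in EMPA + PFD replicates 2 and 3 (102 and 48 counts), while EMPA + PFD replicate 1, with 622 counts, lay inside the range of the untreated group. No other library was below 32.6 CPM. In order of the mean (± SD), the groups were untreated 72.4 ± 3.11, PFD 69.2 ± 10.7, EMPA 62.8 ± 3.91, HFpEF 57.6 ± 23.5, control 5w 51.4 ± 16.4, EMPA + PFD 30.3 ± 37.7 and control 9w 16.0 ± 1.73 CPM. The ranges of each pair of neighbours in this order overlapped, and control 9w overlapped no group but EMPA + PFD. Within EMPA + PFD the highest library was 14.7-fold above the lowest.

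Npas2, which can take the place of Clock in the heterodimer, had 33.6, 58.0 and 48.0 CPM in control 5w, 53.6, 66.3 and 50.6 in HFpEF, 23.7, 19.2 and 24.6 in control 9w and 50.0, 109.9 and 50.4 in untreated. Its levels were 49.7 and 35.8 CPM in EMPA, 48.5 and 54.4 in PFD and 49.9, 16.3 and 9.82 in EMPA + PFD. The same 5 libraries as for Arntl were the lowest, and the highest value, more than 2 times that of the other untreated libraries, was in untreated replicate 2, the library with the most Myl4 counts. The part of atrial RNA in that value was not tested. The order of the means (± SD) was untreated 70.1 ± 34.4, HFpEF 56.8 ± 8.35, PFD 51.5 ± 4.17, control 5w 46.6 ± 12.3, EMPA 42.8 ± 9.79, EMPA + PFD 25.3 ± 21.5 and control 9w 22.5 ± 2.91 CPM, and all neighbours in it overlapped. Clock itself varied least, from 75.8 to 134 CPM over the 19 libraries, with means (± SD) of untreated 126 ± 7.65, PFD 125 ± 1.65, EMPA 123 ± 10.4, HFpEF 117 ± 7.29, control 5w 113 ± 2.17, control 9w 105 ± 1.47 and EMPA + PFD 97.9 ± 24.1 CPM. Only the step from control 5w to control 9w in this order was free of overlap, and the lowest libraries of Clock were again EMPA + PFD replicates 3 (75.8 CPM) and 2 (94.3 CPM).

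Of the repressors, Per1, which besides its place in the clock is induced by glucocorticoids and by cAMP signaling, had 54.9, 71.9 and 72.2 CPM in control 5w and 283, 139 and 313 CPM in HFpEF. At week 9 there were 475, 554 and 424 CPM in control 9w, 234, 282 and 255 in untreated, 376 and 319 in EMPA, 413 and 275 in PFD and 159, 367 and 327 in EMPA + PFD. Control 5w was the lowest group and lay apart from the 16 other libraries, none of which was below 139 CPM. The order of the means (± SD) was control 9w 484 ± 65.8, EMPA 348 ± 40.4, PFD 344 ± 97.3, EMPA + PFD 284 ± 110.5, untreated 257 ± 24.0, HFpEF 245 ± 93.0 and control 5w 66.3 ± 9.89 CPM. Control 9w did not overlap EMPA, and HFpEF did not overlap control 5w, while the neighbours in between overlapped. Per1 was the only one of the 10 genes whose lowest mean was in control 5w.

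Per2 had 75.5, 67.3 and 61.6 CPM in control 5w, 66.2, 45.3 and 123 in HFpEF, 239.7, 286 and 210.1 in control 9w and 20.2, 45.8 and 29.4 in untreated. Under treatment it had 69.8 and 69.1 CPM in EMPA, 71.3 and 30.8 in PFD and 22.5, 141 and 185 in EMPA + PFD. The control 9w libraries were above all others, EMPA + PFD replicates 2 and 3 came next, and EMPA + PFD replicate 1 was among the untreated libraries, 8.25-fold below replicate 3. The order of its means (± SD) was control 9w 245 ± 38.0, EMPA + PFD 116 ± 84.3, HFpEF 78.1 ± 40.2, EMPA 69.4 ± 0.474, control 5w 68.1 ± 6.97, PFD 51.0 ± 28.7 and untreated 31.8 ± 12.98 CPM, in which control 9w was the only group that did not overlap its neighbour. Per3, another Period gene, ranged in the same manner from 122 to 136 CPM in control 9w down to 23.2 to 28.3 CPM in PFD, with 22.6, 69.8 and 107 CPM in EMPA + PFD. Its order was control 9w 129 ± 7.06, EMPA + PFD 66.6 ± 42.5, EMPA 41.8 ± 8.11, HFpEF 36.1 ± 12.7, control 5w 33.8 ± 7.59, untreated 28.4 ± 3.41 and PFD 25.8 ± 3.58 CPM (mean ± SD), and again only control 9w did not overlap the next group.

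Nr1d1 had 83.4, 78.8 and 74.7 CPM in control 5w, 119.7, 28.8 and 109.6 in HFpEF, 154, 151 and 142 in control 9w, 121, 79.4 and 103 in untreated, 63.8 and 62.4 in EMPA, 65.1 and 97.4 in PFD and 106, 82.5 and 82.6 in EMPA + PFD. Its highest group was control 9w and its lowest library was HFpEF replicate 2, while EMPA + PFD replicates 2 and 3 lay below replicate 1. The order was control 9w 149 ± 6.62, untreated 101 ± 21.0, EMPA + PFD 90.2 ± 13.3, HFpEF 86.0 ± 49.8, PFD 81.2 ± 22.9, control 5w 79.0 ± 4.33 and EMPA 63.1 ± 0.960 CPM (mean ± SD), with no overlap between control 9w and untreated or between control 5w and EMPA. Nr1d1 shares 1061 bases (chr10:84224599-84225659 in the GRCr8 gene table) with Thra, a thyroid hormone receptor gene on the opposite strand, and since no strand setting of the counting is given, reads of the shared stretch cannot be told apart. Thra had 135, 94.6 and 98.7 CPM in control 5w, 70.5, 83.3 and 68.4 in HFpEF, 73.7, 65.7 and 67.0 in control 9w, 107, 103 and 96.0 in untreated and 111, 83.9 and 73.0 in EMPA + PFD, so its lowest group was the one in which Nr1d1 was highest.

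The outputs followed Per2 and Per3 more closely. Dbp had 103, 45.2 and 45.8 CPM in control 5w, 66.0, 20.6 and 72.7 in HFpEF, 207, 203 and 183 in control 9w and 55.6, 41.1 and 46.8 in untreated. With treatment there were 42.6 and 34.1 CPM in EMPA, 23.0 and 34.4 in PFD and 41.9, 94.2 and 152 in EMPA + PFD. Control 9w held the 3 highest libraries, followed by EMPA + PFD replicate 3, control 5w replicate 1 and EMPA + PFD replicate 2. The order of Dbp was control 9w 198 ± 12.9, EMPA + PFD 96.2 ± 55.3, control 5w 64.6 ± 33.2, HFpEF 53.1 ± 28.3, untreated 47.8 ± 7.31, EMPA 38.4 ± 5.999 and PFD 28.7 ± 8.03 CPM (mean ± SD), and control 9w alone was free of overlap with its neighbour. Tef, a paralog of Dbp, had 295, 305 and 249.4 CPM in control 9w, 107, 192 and 262 in EMPA + PFD and 69.4 to 139 CPM in the 13 libraries of the other groups. Its order was control 9w 283 ± 29.9, EMPA + PFD 187 ± 77.5, control 5w 124 ± 12.9, HFpEF 99.8 ± 27.8, EMPA 90.5 ± 5.71, untreated 84.3 ± 12.5 and PFD 76.98 ± 0.341 CPM (mean ± SD), and since EMPA + PFD replicate 3 reached into the control 9w range, all neighbours overlapped.

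Ciart, a repressor of the Clock and Arntl pair, showed the widest range of the 10 genes. It had 5.56, 2.95 and 2.23 CPM in control 5w, 5.88, 1.10 and 8.84 in HFpEF, 40.4, 39.7 and 39.2 in control 9w and 2.64, 2.11 and 3.48 in untreated. It had 2.66 and 3.77 CPM in EMPA, 3.18 and 2.37 in PFD and 2.37, 13.4 and 20.8 in EMPA + PFD. The lowest control 9w library was 4.43-fold above the highest of the 13 libraries outside control 9w and EMPA + PFD, and EMPA + PFD replicates 2 and 3 lay in the gap. The control 9w libraries were within 1.03-fold of each other, whereas HFpEF spread 8.04-fold and EMPA + PFD 8.79-fold. The means (± SD) were control 9w 39.8 ± 0.6001, EMPA + PFD 12.2 ± 9.27, HFpEF 5.28 ± 3.91, control 5w 3.58 ± 1.75, EMPA 3.21 ± 0.779, PFD 2.77 ± 0.573 and untreated 2.74 ± 0.689 CPM, with no overlap between control 9w and EMPA + PFD and with overlap of all lower neighbours.

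**Figure D1:**
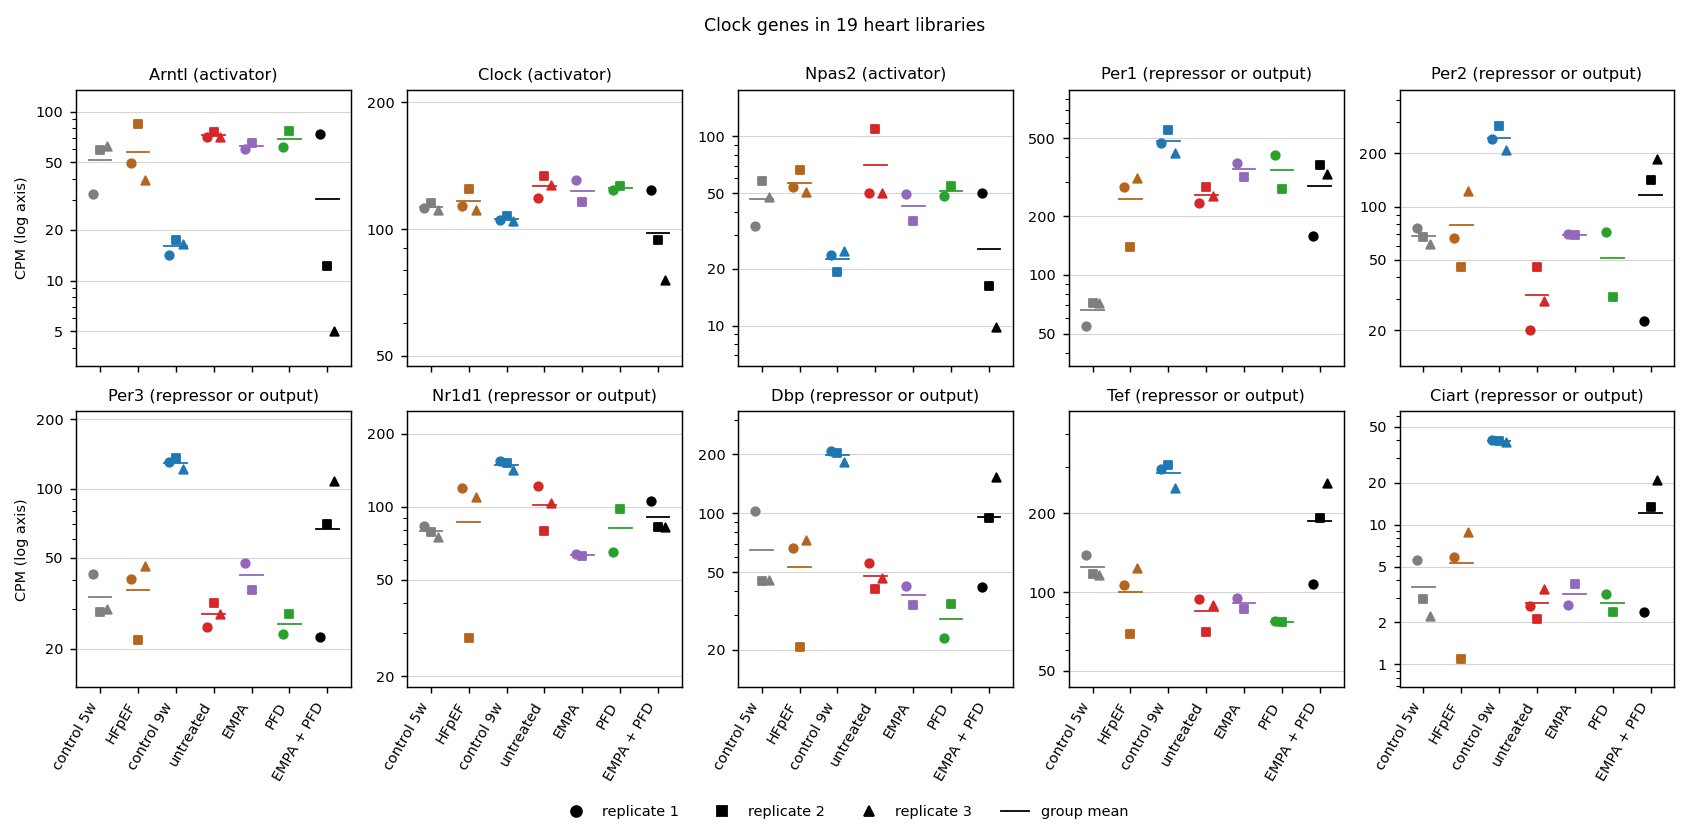
TMM-normalized CPM (log axis) of the 10 clock genes in 19 heart libraries by group, with 1 point per library, marker shape for the replicate number and a line for the group mean. Arntl and Npas2 are low, and Per2, Per3, Dbp, Tef and Ciart high, in the 3 control 9w libraries and in EMPA + PFD replicates 2 and 3, while EMPA + PFD replicate 1 lies inside the untreated range for Arntl, Per2, Dbp and Ciart, just below it for Npas2 and Per3 and above it for Tef.

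The contrast of the arms was summarized per library as the mean log2 CPM of the 7 repressor and output genes minus that of the 3 activators, after each gene's mean over the 19 libraries had been subtracted. This difference was 2.32, 2.38 and 2.09 in control 9w and −1.16, 1.73 and 2.86 in EMPA + PFD. It was −0.02, −0.96 and −0.95 in control 5w, −0.21, −1.89 and 0.24 in HFpEF and −0.96, −1.42 and −0.90 in untreated. The remaining groups had −0.62 and −0.55 in EMPA and −0.85 and −1.13 in PFD. EMPA + PFD replicate 3, the 3 control 9w libraries and EMPA + PFD replicate 2 held the 5 highest values, and HFpEF replicate 3 was the only other library above 0. Group means (± SD) were 2.27 ± 0.16 in control 9w, 1.14 ± 2.07 in EMPA + PFD, −0.59 ± 0.05 in EMPA, −0.62 ± 1.12 in HFpEF, −0.64 ± 0.54 in control 5w, −0.99 ± 0.20 in PFD and −1.09 ± 0.29 in untreated. All groups below EMPA + PFD in this order overlapped HFpEF, whose replicate 2 held the lowest value of the 19. The difference is a description and was given no test.

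**Figure D2:**
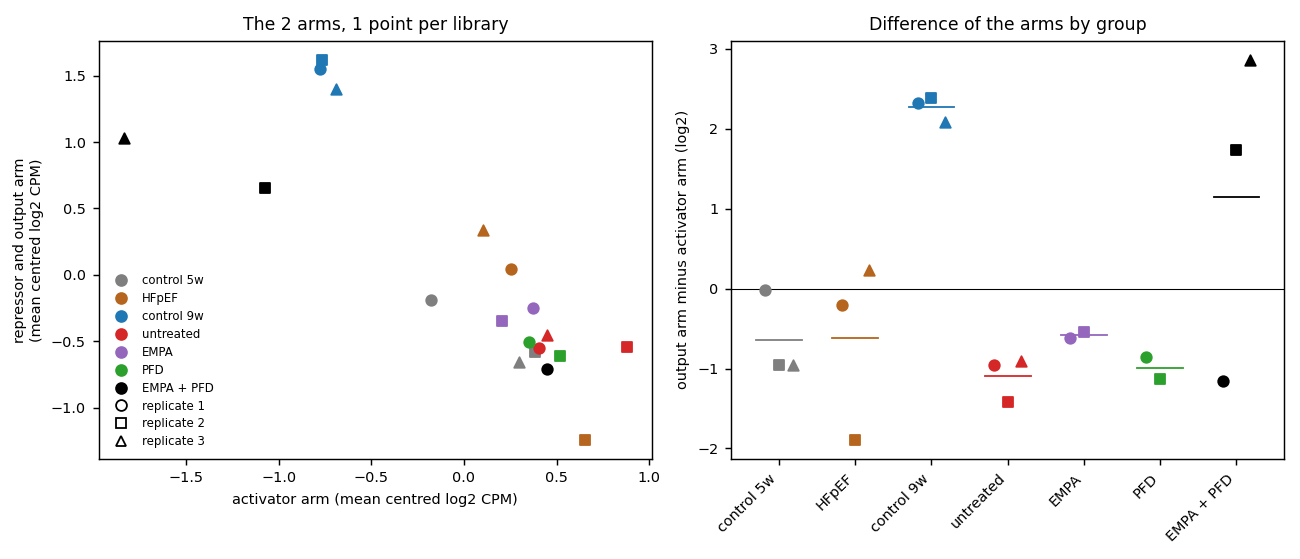
Left, the mean centred log2 CPM of the 7 repressor and output genes against that of the 3 activators, 1 point per library. Right, the difference of the arms per library by group, with a line for the group mean, which is 2.27 in control 9w and −1.09 in untreated.

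The comparison of HFpEF with control 5w asks what 5 weeks of L-NAME and lard diet changed. Per1 was higher in all 3 HFpEF libraries than in any control 5w library and rose by 1.88 (standard error 0.31) on the log2 scale (adjusted p = 0.00199 in the quasi-likelihood test of edgeR, adjusted by Benjamini-Hochberg). It was 1 of 10 members called, against 20.0% of all genes called (9.83% higher and 10.2% lower). The log2 fold change of Arntl was 0.16 (standard error 0.61) and that of Dbp −0.28 (standard error 0.46), with adjusted p-values of 0.869 and 0.690 in the same test. Their signs turned with single libraries, for Arntl without control 5w replicate 1 (−0.07) or HFpEF replicate 2 (−0.21) and for Dbp without control 5w replicate 1 (0.23) or HFpEF replicate 2 (0.10). The median log2 fold change was 0.14 over the members and 0.02 over all tested genes. HFpEF replicate 2, the one HFpEF library with Eif2s3y counts, had the highest Arntl and the lowest Per1, Per2, Per3, Nr1d1, Dbp, Tef and Ciart of its group. With Eif2s3y detection as a covariate, the log2 fold change of Per1 was 1.07 (adjusted p = 0.0585 in the same test), and with only the libraries that had Eif2s3y counts it was 1.13 (adjusted p = 0.0620 in the same test). Both of these settings rest on HFpEF replicate 2 alone for the HFpEF group, so the spread comes from other libraries. In them Nr1d1, which was lowest in that library, had log2 fold changes of −1.45 and −1.39. The second setting was added after the data had been seen.

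Between the 2 control groups, control 9w against control 5w, 6 of the 10 genes rose and 0 fell in the quasi-likelihood test of edgeR, adjusted by Benjamini-Hochberg, against 34.5% of all genes called (17.3% higher and 17.2% lower). Per1 rose by 2.87 (standard error 0.33) on the log2 scale (adjusted p = 9.85e-05) and Ciart by 3.48 (standard error 0.67) (adjusted p = 0.00185, same test). Per3 rose by 1.93 (standard error 0.40), Per2 by 1.85 (standard error 0.56), Dbp by 1.62 (standard error 0.47) and Tef by 1.19 (standard error 0.26), with adjusted p-values of 0.00262, 0.0208, 0.0162 and 0.00356 in the same test. In each of these 6 genes, all 3 control 9w libraries lay above all 3 control 5w libraries. The share of all genes that separate in this way is not given here, so no support beyond the test is read from it. The activators pointed the other way without passing the test. Arntl had −1.68 (standard error 0.64) on the log2 scale and an adjusted p of 0.0528, Npas2 −1.05 (standard error 0.45) and 0.0848 in the same test. The median log2 fold change of the 10 genes was 1.40, that of all tested genes −0.04. Rats of both groups had received chow without L-NAME, and week, the split in RT1-CE16 counts and sampling time cannot be told apart here.

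Some of these calls turned on single libraries. Dbp lost its call without control 5w replicate 2 (adjusted p = 0.0684 in the same test) or 3 (0.0679), and Per2 without control 5w replicate 2 (0.0622), control 5w replicate 3 (0.0676) or control 9w replicate 2 (0.0632). Arntl passed the same test without control 5w replicate 1 (adjusted p = 0.0440) or without EMPA + PFD replicate 1 (0.00230), 2 (0.0453) or 3 (0.0161), Npas2 without EMPA + PFD replicate 1 (0.0190) or 3 (0.0475), and Nr1d1 without HFpEF replicate 1 (0.0424) or 2 (0.00127). The EMPA + PFD libraries enter this comparison only through the shared estimate of the spread. When that whole group was left out, a setting added after the data had been seen, 8 of 10 genes were called against 32.4% of all genes, and Arntl fell by 1.68 on the log2 scale (adjusted p = 0.00153 in the same test).

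The comparison of untreated with control 9w asks what the disease changed at week 9, and it shares its control libraries with the comparison before. Here 5 of the 10 genes fell and 0 rose, against 1.78% of all genes called (0.589% higher and 1.19% lower). Tef fell by 1.75 (standard error 0.26) on the log2 scale (adjusted p = 0.00888 in the quasi-likelihood test of edgeR, adjusted by Benjamini-Hochberg), Ciart by 3.86 (standard error 0.70) (adjusted p = 0.0199) and Per3 by 2.18 (standard error 0.40) (adjusted p = 0.0206). Per2 decreased by 2.94 (standard error 0.59) (adjusted p = 0.0254, same test). Dbp decreased by 2.05 (standard error 0.48) (adjusted p = 0.0422, same test). All 3 untreated libraries lay below all 3 control 9w libraries in each of the 5. How many of all genes separate so fully is not given here, so such separation is a description and adds no support to the test. Arntl, with 2.18 (standard error 0.65) on the log2 scale, Npas2, with 1.64 (standard error 0.46), and Per1, with −0.91 (standard error 0.31), had adjusted p-values of 0.0880, 0.0744 and 0.126 in the same test, and no untreated library reached the range of control 9w in these genes either. The median log2 fold change was −1.33 over the members against 0.01 over all tested genes.

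These calls were sensitive to the libraries. Without control 9w replicate 2, 0 of the 10 genes passed the quasi-likelihood test of edgeR, adjusted by Benjamini-Hochberg, although 8 had an unadjusted p under 0.05 there and 0.0647% of all genes were called, and with all libraries DESeq2 called 8 (all genes 6.65%) and voom 10 (all genes 40.4%). The number of all genes with an unadjusted p under 0.05 without control 9w replicate 2 is not given here. With all libraries, edgeR gave an unadjusted p under 0.05 for 8 of the 10 genes and 2259 of the 12388 tested genes. Without control 9w replicate 2 Tef had an adjusted p of 0.0606 in the same test of edgeR. Without control 9w replicate 1, untreated replicate 1 or untreated replicate 3, Tef alone was called (all genes 0.202%, 0.129% and 0.274%), since Ciart (adjusted p from 0.0623 to 0.103 in the same test over the 4 omissions), Per2 (0.0905 to 0.135) and Per3 (0.0745 to 0.109) lost their calls. Dbp lost its call in 12 of the 19 fits that left out 1 library, with adjusted p-values from 0.0529 to 0.148 in the same test, and kept it without control 5w replicate 1, any HFpEF replicate, untreated replicate 2 or EMPA + PFD replicates 1 or 3. Arntl was called without EMPA + PFD replicate 1 (adjusted p = 0.00663) or 3 (0.0391), and Npas2 likewise (0.0188 and 0.0491), in the same test. Without the whole EMPA + PFD group 7 genes were called, against 2.00% of all genes, and Arntl rose by 2.17 on the log2 scale (adjusted p = 0.00545 in the same test). All untreated libraries lacked Eif2s3y and all control 9w libraries had it, so group and Eif2s3y cannot be told apart within these libraries. A covariate for Eif2s3y takes its coefficient from HFpEF replicate 2 against replicates 1 and 3, the only group with both kinds of library. With it 1 of the 10 genes was called, and no conclusion is drawn from that fit here.

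Between HFpEF at week 5 and untreated at week 9, both with the disease induced, 0 of 10 genes passed the quasi-likelihood test of edgeR, adjusted by Benjamini-Hochberg, against 0.226% of all genes. Per2 alone had an unadjusted p under 0.05, with −1.29 (standard error 0.56) on the log2 scale and an adjusted p of 0.192 in the same test. DESeq2 called 0 of the members (all genes 7.79%) and voom 1 (all genes 27.8%). Arntl had 0.33 (standard error 0.61) on the log2 scale and Dbp −0.15 (standard error 0.46), with adjusted p-values of 0.770 and 0.864 in the same test. With 1 library left out Arntl ranged from 0.12 (without HFpEF replicate 3) to 0.71 (without HFpEF replicate 2), and Dbp from −0.54 (without HFpEF replicate 2) to 0.14 (without HFpEF replicate 3). The median log2 fold change of the members was −0.04 and that of all genes −0.01.

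Whether the effect of the disease differed between the weeks was tested as the interaction, (untreated minus control 9w) minus (HFpEF minus control 5w). It was negative for 5 of the 10 genes, Ciart, Per1, Per2, Per3 and Tef, and positive for 0, against 20.0% of all genes called (9.76% higher and 10.2% lower) in the quasi-likelihood test of edgeR, adjusted by Benjamini-Hochberg. Arntl had an interaction of 2.02 (standard error 0.88) on the log2 scale (adjusted p = 0.115 in the same test) and Dbp one of −1.77 (standard error 0.65) (adjusted p = 0.0681 in the same test). The median over the members was −1.60, over all tested genes −0.02. All untreated libraries lacked Eif2s3y, in HFpEF replicates 1 and 3 did, and no control library did. RT1-CE16 counts separated both groups of week 9 from both of week 5, so week and this split cannot be told apart. The count was 8 without EMPA + PFD replicate 1 (all genes 19.6%), and 9 by voom with all libraries (all genes 47.8%). Arntl was called without EMPA + PFD replicate 1 (adjusted p = 0.00977) or 3 (0.0470), Npas2 without EMPA + PFD replicate 1 (0.0411), Nr1d1 without HFpEF replicate 2 (0.0126), and Dbp without control 5w replicate 1 (0.0289), HFpEF replicate 2 (0.0244) or EMPA + PFD replicate 1 (0.0422), all in the same test.

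EMPA + PFD was compared with untreated to ask what the combination changed in diseased hearts. Tef rose by 1.15 (standard error 0.26) on the log2 scale (adjusted p = 0.0180 in the quasi-likelihood test of edgeR, adjusted by Benjamini-Hochberg), Per2 by 1.87 (standard error 0.57) (adjusted p = 0.0460) and Ciart by 2.16 (standard error 0.67) (adjusted p = 0.0489). Npas2 decreased by 1.47 (standard error 0.45) (adjusted p = 0.0476, same test). These 4 of 10 calls, 3 higher and 1 lower, stand against 12.1% of all genes called (6.60% higher and 5.52% lower). Arntl had −1.26 (standard error 0.62) and Dbp 1.01 (standard error 0.46), with adjusted p-values of 0.171 and 0.146 in the same test. The median log2 fold change was 0.58 over the members and −0.03 over all genes. In Per2 and Ciart, 2 of the 3 EMPA + PFD libraries lay above all untreated libraries and replicate 1 lay within their range. Npas2 was lower than in any untreated library in all 3, by a margin of 49.9 against 50.0 CPM for replicate 1, and Tef was higher in all 3. For this separation, too, the share of all genes is not given here.

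The replicates of EMPA + PFD did not agree on the clock genes, and the comparison turns on them. Without replicate 1, 8 of the 10 genes were called against 15.4% of all genes. Arntl then fell by 3.06 (standard error 0.41) on the log2 scale (adjusted p = 0.00153 in the quasi-likelihood test of edgeR, adjusted by Benjamini-Hochberg), Npas2 by 2.42 and Clock by 0.55, while Ciart rose by 2.66, Per2 by 2.37, Per3 by 1.66, Tef by 1.45 and Dbp by 1.39. Without replicate 3, the log2 fold change of Arntl was −0.74 and that of Dbp 0.53. Without replicate 2, without replicate 3 or without untreated replicate 2, 0 genes were called by edgeR, and 5, 4 and 6 had an unadjusted p under 0.05 (all genes called 0.888%, 2.53% and 1.13%). A fit of only the 2 groups compared also called 0 (6 at an unadjusted p under 0.05, all genes called 0.0435%). These shares of all genes are of adjusted calls, and the matching unadjusted shares are not given here. No rise over the background is therefore read from the unadjusted counts of these fits. With all libraries, edgeR gave an unadjusted p under 0.05 for 7 of the 10 genes and 4055 of the 12388 tested genes. DESeq2 called 5 with all libraries (all genes 20.4%) and voom 8 (all genes 30.0%). Ciart lost its call in 15 of the 19 fits that left out 1 library (adjusted p from 0.0513 to 0.179 in the same test) and kept it without control 5w replicate 1, HFpEF replicates 2 or 3 or EMPA + PFD replicate 1. Npas2 lost it in 15 (adjusted p from 0.0507 to 0.236 in the same test) and kept it without control 5w replicate 1, HFpEF replicate 2, untreated replicate 1 or EMPA + PFD replicate 1. Per2 lost it in 12 (adjusted p from 0.0535 to 0.159 in the same test) and kept it without control 5w replicate 1, any HFpEF or PFD replicate or EMPA + PFD replicate 1. Tef lost it without untreated replicate 2 (adjusted p = 0.0823 in the same test), EMPA + PFD replicate 2 (0.0697) or 3 (0.0683). Per3, with 1.23 (standard error 0.39) and an adjusted p of 0.0540 in the same test, was called without control 5w replicate 1 (0.0449), HFpEF replicate 2 (0.0432) or EMPA + PFD replicate 1 (0.00288).

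Against the same untreated libraries, no clock gene passed the threshold in EMPA alone or in PFD alone. In EMPA 0 of 10 genes were called by the quasi-likelihood test of edgeR, adjusted by Benjamini-Hochberg, against 0.0404% of all genes, and 0 had an unadjusted p under 0.05. Arntl had −0.21 (standard error 0.68) on the log2 scale and Dbp −0.32 (standard error 0.53), with adjusted p-values of 0.980 and 0.941 in the same test. In PFD, too, 0 of 10 were called, against 0.00807% of all genes, and 0 had an unadjusted p under 0.05. There Arntl had −0.07 (standard error 0.68) and Dbp −0.74 (standard error 0.53), with adjusted p-values of 0.980 and 0.786 in the same test, and Arntl had 0.08 without PFD replicate 1. DESeq2 and voom also called 0 in both, where they called 0.767% and 0.396% of all genes in EMPA and 0.0404% and 0.0404% in PFD. Medians over the members were 0.03 in EMPA and −0.10 in PFD, over all genes 0.01 and −0.02. Each group held 2 libraries, so the standard errors were larger than in groups of 3, and a p that misses the threshold does not show that the levels were the same. Both EMPA libraries had Eif2s3y counts (676 and 789) and 0 counts of RT1-CE16. The untreated libraries had 0 counts of Eif2s3y and 583 to 684 of RT1-CE16. EMPA and these splits can therefore not be told apart, while the PFD libraries were like untreated in both.

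The interaction of the drugs, EMPA + PFD minus EMPA minus PFD plus untreated, was called for 0 of 10 genes, against 0.00807% of all genes, by the quasi-likelihood test of edgeR, adjusted by Benjamini-Hochberg, and by DESeq2 (all genes 0.436%) and voom (all genes 0.880%) for 0. An unadjusted p under 0.05 was found for 2, Dbp with 2.06 (standard error 0.76) (adjusted p = 0.467 in the same test) and Tef with 1.18 (standard error 0.41) (adjusted p = 0.448 in the same test). Arntl had −0.99 (standard error 0.96) (adjusted p = 0.794 in the same test), and −2.78 without EMPA + PFD replicate 1, −0.60 without replicate 2 and −0.46 without replicate 3. The median was 0.44 over the members and −0.01 over all genes.

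Against control 9w, EMPA + PFD had 1 of 10 genes called, Ciart, which fell by 1.70 (standard error 0.62) on the log2 scale (adjusted p = 0.0462 in the quasi-likelihood test of edgeR, adjusted by Benjamini-Hochberg). The share of all genes called was 33.8% (17.1% higher and 16.6% lower). An unadjusted p under 0.05 in the same test was found for 5 of the 10 genes and 5500 of the 12388 tested genes. The unadjusted count of the members is thus near the background. Arntl had 0.91 (standard error 0.64) and Dbp −1.04 (standard error 0.46), with adjusted p-values of 0.285 and 0.0952 in the same test. Members had a median of −0.75 and all genes one of −0.08. The sign of Arntl depended on replicate 1, without which its log2 fold change was −0.89, and it was 1.43 without replicate 3. Dbp had −0.67 without replicate 1. Ciart lost its call in 13 of the 19 fits that left out 1 library (adjusted p from 0.0522 to 0.106 in the same test) and kept it without control 5w replicate 1, any HFpEF replicate, untreated replicate 2 or EMPA + PFD replicate 3. With it the count fell to 0 in those 13, against 2 by DESeq2 (all genes 37.5%) and 7 by voom (all genes 54.7%) in all libraries. Without HFpEF replicate 2, 4 genes were called (all genes 34.6%), with Dbp (adjusted p = 0.0488 in the same test), Nr1d1 (0.00532) and Per1 (0.0313) in addition. Without EMPA + PFD replicate 3 there were also 4 (all genes 25.8%), with Dbp (0.0384), Per3 (0.0164) and Tef (0.0192).

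Arntl was related to the other members heart by heart. Over the 19 libraries its levels fell into 2 clusters, 5 libraries at 5.01 to 17.5 CPM and 14 at 32.6 to 84.0 CPM, so the levels as they were are not correlated here over all 19. EMPA + PFD has libraries in both clusters, and after subtraction of group means its libraries still span the gap. After the group means had been subtracted, exact permutations within groups (31104, two-sided, Benjamini-Hochberg over the 9 pairs) gave r = −0.91 (p = 0.00138, adjusted 0.00651) and rho = −0.84 (p = 0.00354, adjusted 0.0233) for Tef. For Ciart they gave r = −0.88 (p = 0.00145, adjusted 0.00651) and rho = −0.86 (p = 0.00518, adjusted 0.0233). Dbp had r = −0.81 (p = 0.00958, adjusted 0.0158) and rho = −0.78 (p = 0.0183, adjusted 0.0338) in the exact permutation test. Per3 had r = −0.94 (p = 0.0105, adjusted 0.0158) and rho = −0.77 (p = 0.0225, adjusted 0.0338), also by exact permutation. Npas2 was related to Arntl with the same sign, at r = 0.86 (p = 0.00559, adjusted 0.0126) and rho = 0.65 (p = 0.0132, adjusted 0.0338) by exact permutation. EMPA + PFD, the group with the widest spread of Arntl, weighs in these values. With the 2 farthest libraries left out, EMPA + PFD replicates 1 and 3, r was −0.89 for Ciart, −0.83 for Dbp, −0.81 for Per3 and −0.79 for Tef, but 0.51 for Npas2.

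Of the other pairs, Clock had r = 0.90 (p = 0.0188, adjusted 0.0242) and rho = 0.59 (p = 0.0364, adjusted 0.0468) in the exact permutation test, and r = 0.44 without the same 2 libraries. Per2 had r = −0.86 (p = 0.00492, adjusted 0.0126) and rho = −0.67 (p = 0.0202, adjusted 0.0338) by exact permutation, and r = −0.61 without them. Per1 had r = −0.66 (p = 0.105, adjusted 0.118) and rho = −0.51 (p = 0.116, adjusted 0.130) by exact permutation, and r = −0.51 without them. Nr1d1 had r = −0.09 (p = 0.638, adjusted 0.638) and rho = −0.14 (p = 0.643, adjusted 0.643) by exact permutation, and r = −0.56 without them. The relations of Clock and Npas2 with Arntl thus rest in large part on EMPA + PFD replicates 1 and 3. In the 16 libraries outside EMPA + PFD (5184 exact permutations), Tef (r = −0.79, rho = −0.74) and Ciart (r = −0.88, rho = −0.76) had adjusted p-values of 0.0391 for r, and no other pair was below 0.108 in that permutation test.

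Within the cluster of 14 libraries, without subtraction of group means and with 100000 permutations, Ciart had r = −0.84 (adjusted p = 9.45e-04) and rho = −0.78 (adjusted p = 0.00531). Tef had r = −0.79 (adjusted p = 9.45e-04) and rho = −0.80 (adjusted p = 0.00531) in the same permutation test, and Dbp r = −0.78 (adjusted p = 0.00276) and rho = −0.68 (adjusted p = 0.0172). Per3 had r = −0.72 (adjusted p = 0.00556) and rho = −0.70 (adjusted p = 0.0144) by permutation, and Clock r = 0.66 (adjusted p = 0.0109) and rho = 0.65 (adjusted p = 0.0212). Per2 had r = −0.68 (adjusted p = 0.0109) and rho = −0.77 (adjusted p = 0.00531) by permutation, and Npas2 r = 0.51 (adjusted p = 0.0977) and rho = 0.43 (adjusted p = 0.165). Per1, with r = 0.27 (adjusted p = 0.351) and rho = −0.06 (adjusted p = 0.842) by permutation, and Nr1d1, with r = −0.31 (adjusted p = 0.300) and rho = −0.18 (adjusted p = 0.609), did not pass the threshold. These permutations move libraries across the 6 groups that hold the 14, so their p-values do not take account of group, week or the split in RT1-CE16 counts. Without the 2 libraries farthest from the median of Arntl, r was −0.79 for Ciart, −0.63 for Tef, −0.61 for Per2, −0.61 for Per3, 0.55 for Clock, −0.51 for Dbp, 0.36 for Npas2, −0.34 for Nr1d1 and −0.04 for Per1, so the relation of Dbp rests in part on those 2. The cluster of 5 libraries was too small for a correlation.

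**Figure D3:**
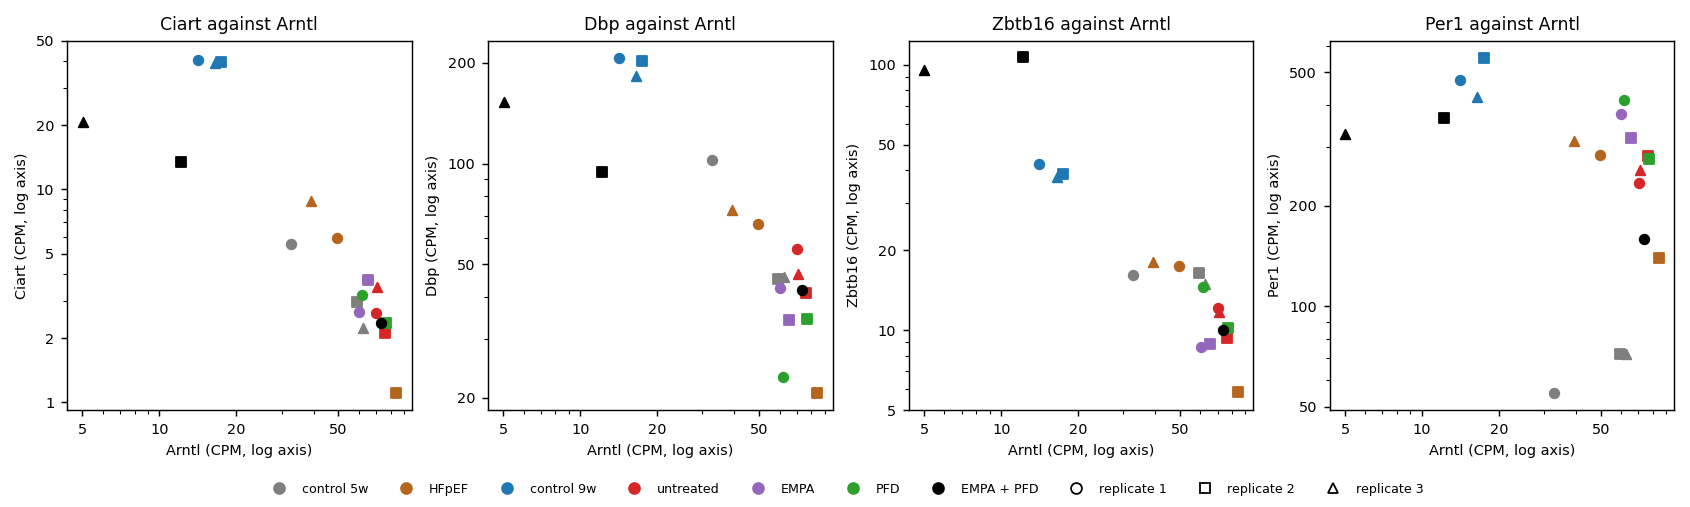
Ciart, Dbp, Zbtb16 and Per1 against Arntl in 19 libraries, both axes in TMM-normalized CPM on log scales, color for the group and marker shape for the replicate number. The 5 libraries at or below 17.5 CPM of Arntl are the 3 of control 9w and EMPA + PFD replicates 2 and 3, and Per1 is lowest in control 5w, where Arntl is 32.6 to 62.4 CPM.

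Among 10004 tested genes with a mean of at least 5 CPM, the 10 members left out, likeness to Arntl and Dbp was measured as Pearson's r of log2 CPM over the 19 libraries after subtraction of the group means, as a description without a test. Of these genes, those most like Arntl were Foxs1 (0.93), Ppp1r10 (0.90), Ypel2 (0.89), Six5 (0.88) and RT1-T24-1 (0.86), and the most opposite were Klf9 (−0.91), Zbtb16 (−0.90), Med1 (−0.89), Rapgef5 (−0.89) and Dmxl1 (−0.89). Those most like Dbp were Nr1d2 (0.93), Mef2a (0.88), LOC680039 (0.85), Kif21a (0.84) and Oplah (0.84), and the most opposite were Traf4 (−0.92), Hist1h4b (−0.91), H2az2 (−0.89), Myl12b (−0.86) and Kctd5 (−0.85). Nr1d2, a paralog of Nr1d1 and itself a clock gene, thus followed Dbp most closely. Libraries of a group share its treatment and week.

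Of 24 further clock genes that were listed, 20 were in the files and 19 were tested. The others were not analysed here, except Rorb, which was in the files with at most 3 counts in each library. Over the 7 groups 11 of the 19 were called by the quasi-likelihood test of edgeR, adjusted by Benjamini-Hochberg, near the 50.3% of all genes. In HFpEF against control 5w 5 fell and 0 rose, the 4 largest log2 fold changes being those of Usp2 (−1.21), Gsk3b (−0.80), Ppp1cb (−0.75) and Cipc (−0.68), with a list median of −0.03 against 0.02 for all genes and 10.2% of all genes lower. In control 9w against control 5w 5 rose, led by Fbxl21 (1.03), Nr1d2 (0.96) and Wee1 (0.94), and 4 fell, among them Gsk3b (−0.81), with a median of 0.11 against −0.04 and 34.5% of all genes called. In untreated against control 9w only Nfil3, a repressor at the D-box sites that Dbp and Tef activate, was called, with a rise of 1.02 (standard error 0.22) on the log2 scale (adjusted p = 0.0310 in the same test, 0.589% of all genes higher). In EMPA + PFD against untreated 6 rose and 0 fell, with Usp2 (1.71), Wee1 (0.98), Cry2 (0.96) and Ppp1cb (0.76) at the top, a median of 0.42 against −0.03 and 6.60% of all genes higher. Against control 9w, EMPA + PFD had 8 higher and 0 lower, led by Noct (1.17), Usp2 (1.12), Nfil3 (1.06) and Ppp1cb (1.03), beside 17.1% of all genes higher and 33.8% called. For the interaction of disease and week 3 were positive and 1, Wee1 (−1.51), was negative, beside 20.0% of all genes called. In untreated against HFpEF, EMPA, PFD and the interaction of the drugs 0 were called.

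Of these genes, 5 are given per library, of which Cry2, Nr1d2 and Wee1 were split within EMPA + PFD as Per2, Per3, Dbp, Tef and Ciart were. Cry2, a Cryptochrome repressor, had 118, 136 and 113 CPM in control 9w, 57.7, 61.5 and 65.3 in untreated and 65.9, 139 and 154 in EMPA + PFD. Nr1d2 had 318, 312 and 272 CPM in control 9w, 159.5, 166 and 154 in untreated and 150.2, 222 and 268 in EMPA + PFD. Wee1, a kinase of the cell cycle with E-box control, had 74.4, 64.6 and 67.4 CPM in control 9w, 33.7, 36.6 and 34.03 in untreated and 38.7, 64.6 and 102 in EMPA + PFD. In all 3 genes, EMPA + PFD replicates 2 and 3 were above every untreated library, while replicate 1 lay next to the untreated range, just above it in Cry2 and Wee1 and just below it in Nr1d2. Usp2, a deubiquitinase with a strong daily rhythm, differed from this in that control 9w (49.6, 49.6 and 41.2 CPM) stayed far below EMPA + PFD replicates 2 and 3 (42.2, 135 and 128 CPM in the 3 replicates). Cry1, which peaks later than the other repressors, had 9.36, 10.2 and 9.77 CPM in control 9w, 14.2, 7.31 and 11.6 in untreated and 15.8, 15.8 and 23.9 in EMPA + PFD, so that among these 3 groups the EMPA + PFD libraries were highest, and control 9w lay within the untreated range.

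Markers of the cell types that a heart sample can hold were measured beside the clock genes. The 8 ventricular cardiomyocyte markers, all in the files and led by Myh6, summed to 32443, 38377 and 34706 CPM in control 9w, 61701, 17314 and 50456 in untreated and 60438, 85224 and 71643 in EMPA + PFD. At week 5 the sums were 79773, 32493 and 36382 CPM in control 5w and 10375, 20314 and 31053 in HFpEF, and under single drugs 40749 and 31214 in EMPA and 58058 and 65248 in PFD. These markers were thus abundant in every library, and 1 of 8 rose in EMPA + PFD against untreated, 3 rose in EMPA + PFD against control 9w, 2 fell in HFpEF against control 5w, 1 fell in control 9w against control 5w and 2 were positive for the interaction of disease and week. In the same order, 6.60%, 17.1%, 10.2%, 17.2% and 9.76% of all genes did so. The 7 atrial markers, all in the files and led by Nppa, summed to 5396, 253 and 23899 CPM in control 9w, 203, 15179 and 594 in untreated, 322, 768 and 379.5 in EMPA + PFD and 3502, 6647 and 5107 in control 5w. HFpEF had 2507, 382 and 2207 CPM, EMPA 876 and 5445 and PFD 3179 and 242. Of these 7 markers, 3 rose in control 9w against control 5w, 2 fell in EMPA + PFD against untreated, 5 fell in EMPA + PFD against control 9w and 0 were called in untreated against control 9w. The shares of all genes were 17.3% higher, 5.52% lower, 16.6% lower and 1.78% called in these comparisons.

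The 7 fibroblast markers, all in the files and led by Col3a1, summed to 4459.8, 40884 and 32939.6 CPM in control 5w, 16039.5, 9501 and 11841 in HFpEF, 4278, 3038 and 4476 in control 9w and 3889, 8141 and 3658 in untreated. In EMPA the sums were 3612 and 7355 CPM, in PFD 4286 and 3838 and in EMPA + PFD 4644, 2012 and 3921. Control 5w replicates 2 and 3 were far above all others, and replicate 1 of that group, with low fibroblast markers, was the control 5w library with the lowest Arntl and the highest Dbp. From control 5w to control 9w, 5 of the 7 fibroblast markers and 4 of the 6 myeloid markers (led by Lyz2, list sum 224 to 2603 CPM) fell, and 5 of the 6 endothelial markers (led by Kdr, list sum 1102 to 3248 CPM) rose. Of all genes, 17.3% rose and 17.2% fell there. Endothelial markers also rose in HFpEF against control 5w (3 of 6, all genes 9.83%) and fell in EMPA + PFD against control 9w (5 of 6, all genes 16.6%) and against untreated (1 of 6, all genes 5.52%), and 2 were negative for the interaction of disease and week (all genes 10.2%). Between untreated and control 9w 0 markers of these 3 lists were called. Of the smooth muscle and pericyte markers (6 of 6 in the files, led by Pdgfrb, list sum 803 to 2953 CPM) 1 rose and 1 fell from control 5w to control 9w and 1 was positive for the interaction of disease and week (all genes 9.76%). The erythroid markers (4 of 5 in the files, Hba2 not analysed here, led by Hbb, list sum 137 to 3637 CPM) fell in 2 of 3 tested genes in untreated against control 9w (all genes 1.19%), in 3 of 3 in untreated against HFpEF (0.226% called) and in 2 of 3 in EMPA + PFD against control 9w (16.6%), rose in 1 in EMPA + PFD against untreated (6.60%) and were negative in 2 for the interaction of disease and week (10.2%).

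The lymphocyte (6 of 6, led by Cd8a, list sum 6.46 to 43.2 CPM), adipocyte (4 of 4, led by Cfd, list sum 6.39 to 58.5 CPM) and skeletal muscle markers (5 of 5, led by Acta1, list sum 583 to 6729 CPM) had 1, 0 and 0 members called in untreated against control 9w (all genes 1.78%) and 0 in EMPA + PFD against untreated (all genes 12.1%). In HFpEF against control 5w 2 lymphocyte markers rose and 1 skeletal muscle marker fell (all genes 9.83% and 10.2%), 1 skeletal muscle marker fell in control 9w against control 5w (all genes 17.2%), and 1 was positive for the interaction of disease and week (all genes 9.76%). No marker named in these lists that was in the files stayed at or below 3 counts in all libraries. Their part in the differences of the clock genes was not tested.

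The promoters of the members show where the letters recognized by clock factors occur. RefSeq promoters of GRCr8, 250 bases before to 50 bases after a transcription start, were at hand for all 10 members (12 starts, since Clock and Nr1d1 had 2 each, of 33469 in the table). They were searched on both strands for the E-box CACGTG, the D-box TTATGTAA or TTACGTAA and the receptor motif AGGTCA, and no 2 of these motifs share a match in the member promoters. The E-box was found in the promoters of Ciart (3 matches, starting at −93, −35 and −21 from the start), Nr1d1 (−191 from 1 of its 2 starts, the one inside the gene, and none at the other) and Tef (−198), against 6.42% of all promoters. The D-box was found in Per2 (−192), against 1.01% of all promoters, and the receptor motif in Arntl (−15, listed there as Bmal1), against 16.2%. A match shows that the letters are present and does not show that a factor binds, and the windows of the other members hold none of these letters. Several starts lie inside the annotated gene, by 9647 bases for Tef, 5374 for Per1, 2358 for the inner start of Nr1d1, 1532 for Ciart and 37798 for 1 start of Clock. Other starts of these genes were not in the table, except for Nr1d1 and Clock, so neither a match nor its absence speaks for the outer promoters of Tef, Per1 and Ciart. The 250 bases before the start of these 5 genes, in which the capitals mark the matches, lie at chr2:186112247-186112496, minus strand for Ciart, chr7:115206577-115206826, plus strand for Tef, chr10:84229455-84229704, minus strand for the inner start of Nr1d1, chr9:99496994-99497243, minus strand for Per2 and chr1:176766078-176766327, plus strand for Arntl. They are shown 5′ to 3′ because their genes include the member with the widest range (Ciart) and the activator that opposed it (Arntl).
Ciart: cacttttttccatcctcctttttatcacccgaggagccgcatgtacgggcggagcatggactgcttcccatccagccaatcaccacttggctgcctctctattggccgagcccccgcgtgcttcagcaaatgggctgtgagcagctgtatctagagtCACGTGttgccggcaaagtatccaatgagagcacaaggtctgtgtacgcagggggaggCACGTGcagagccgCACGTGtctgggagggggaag
Tef: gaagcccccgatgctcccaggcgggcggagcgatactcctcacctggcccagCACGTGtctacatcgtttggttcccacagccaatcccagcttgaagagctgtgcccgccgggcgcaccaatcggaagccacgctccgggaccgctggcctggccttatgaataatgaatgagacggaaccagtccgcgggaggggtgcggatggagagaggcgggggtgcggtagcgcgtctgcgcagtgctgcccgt
Nr1d1: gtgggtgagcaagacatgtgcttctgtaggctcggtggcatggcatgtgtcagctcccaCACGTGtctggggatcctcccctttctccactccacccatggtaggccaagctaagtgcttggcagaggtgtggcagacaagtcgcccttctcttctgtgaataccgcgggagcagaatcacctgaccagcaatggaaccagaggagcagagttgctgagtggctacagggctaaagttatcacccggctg
Per2: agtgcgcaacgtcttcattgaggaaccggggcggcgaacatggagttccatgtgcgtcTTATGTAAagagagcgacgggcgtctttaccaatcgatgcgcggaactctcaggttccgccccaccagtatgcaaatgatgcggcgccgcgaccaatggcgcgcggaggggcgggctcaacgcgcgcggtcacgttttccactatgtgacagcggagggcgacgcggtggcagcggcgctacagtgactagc
Arntl: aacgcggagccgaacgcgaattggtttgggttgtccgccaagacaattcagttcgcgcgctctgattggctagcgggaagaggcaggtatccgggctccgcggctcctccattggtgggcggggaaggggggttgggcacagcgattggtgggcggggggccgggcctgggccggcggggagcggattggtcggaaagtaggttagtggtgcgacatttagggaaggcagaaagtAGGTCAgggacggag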

How the data were processed

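RNA from 19 rat hearts in 7 groups was sequenced, and groups and replicate numbers were taken from the labels. Reads had been trimmed (Trim Galore), mapped to rn6 (HISAT2) and counted (HTSeq) by the authors, who deposited whole counts per gene symbol. Overlap mode and strand setting are not given in the sources used here.

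A single model of all libraries was fitted in edgeR 4.0.16 (R 4.3.3) after TMM normalization, and genes were tested by quasi-likelihood F tests, over the 12388 genes kept by filterByExpr with Benjamini-Hochberg adjustment over these genes and a threshold of 0.05. CPM are TMM-normalized, and log2 CPM used a prior count of 2. Permutations were run in numpy 2.4.6 (Python 3.11.15).

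Members and gene lists (other clock genes, daily rhythm, glucocorticoid, body temperature and immediate early genes, cell type markers) were chosen with earlier results of these data known, so no p-value on them, those of the correlations with Arntl included, is independent of that choice. Named were all members, those called and always Arntl and Dbp in each comparison, at most 4 called genes per other list, and 5 genes each way by likeness. Alternatives were other normalizations, filters, tools (DESeq2 1.42.0, voom in limma 3.58.1), thresholds, samples, a replicate block, an Eif2s3y covariate and the omission of each library. Replicate pairs differed beyond counting noise (chi-square per degree of freedom 6.80 to 179). The lowest value was that of control 5w replicates 2 and 3, while replicate 1 of that group had 179 and 138 against them. The promoter and gene tables were of GRCr8, not rn6.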

Additional observations from a re-analysis of the deposited data

Results flagged for a closer look

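Of the clock genes, 5 had an effect of the disease at week 9 (untreated against control 9w) that differed from the effect at week 5 (HFpEF against control 5w), as tested by the interaction in the quasi-likelihood test of edgeR, adjusted by Benjamini-Hochberg, beside 20.0% of all genes called. The interaction of Ciart was −4.43 (standard error 0.94) on the log2 scale (adjusted p = 0.00696 in the same test), from a week 5 effect of 0.57 and a week 9 effect of −3.86. That of Per2 was −3.14 (standard error 0.79) (adjusted p = 0.0147 in the same test), from 0.20 and −2.94. Per1 had an interaction of −2.80 (standard error 0.44) (adjusted p = 0.00178 in the same test) and the only sign change in which the week 5 effect had been called, 1.88 at week 5 and −0.91 at week 9. The week 9 effect of Per1 was not called (adjusted p = 0.126 in the same test), and its week 5 effect lost its call with the Eif2s3y covariate. For Per3 the interaction was −2.28 (standard error 0.56) (adjusted p = 0.0127 in the same test), from 0.09 and −2.18, and for Tef −1.43 (standard error 0.36) (adjusted p = 0.0150 in the same test), from −0.31 and −1.75. Between the diseased groups of the 2 weeks, untreated against HFpEF, 0 of the 5 genes were called by edgeR (Per2 had an unadjusted p under 0.05), 0 by DESeq2 and at most 1 by voom, while between the controls of the 2 weeks all 5 were called. The shares of all genes called differed likewise, 0.226% and 34.5%. All 5 were called in each fit that left out 1 library. Week cannot be told apart from the split in RT1-CE16 counts, and Eif2s3y was lacking in all untreated libraries but only in replicates 1 and 3 of HFpEF.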

How the results depend on the processing

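No log2 fold change, count or correlation that was past its threshold turned its direction in any setting that was run. Counts of clock genes called kept within 1.5 times in 104 of 121 other settings, and called or uncalled states of log2 fold changes in 401 of 442. With voom and quality weights, which called 27.8% to 90.9% of all genes in these comparisons, the count was 10 over all groups, 10 in untreated against control 9w, 1 in untreated against HFpEF, 8 in EMPA + PFD against untreated, 7 against control 9w and 9 for the interaction of disease and week. DESeq2 called 8 in untreated against control 9w and 2 in EMPA + PFD against control 9w. With the Eif2s3y covariate, whose coefficient rests on HFpEF replicate 2 against 1 and 3, these were 1 and 4. The shares of all genes called with the covariate in these comparisons are not given here, so the counts cannot be set against the background. For EMPA + PFD against untreated the count was 1 without a filter and 0 in a fit of only the groups compared (all genes 0.0435% in the latter). Against control 9w the count was 3 with upper quartile normalization, 2 in a fit of only the groups compared and 3 with only the libraries that had Eif2s3y counts. The other shares of all genes in these settings are not given here, and those of the main fits were 12.1% and 33.8%. No rise over the background is therefore read from these counts. Without the EMPA + PFD group, 8 were called for the interaction of disease and week. The share of all genes for this interaction without the group is not given here, and it was 20.0% in the main fit. The settings with only the libraries that had Eif2s3y counts and without the EMPA + PFD group were added after seeing the data. The causes were not tested.

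Same-numbered libraries of different groups share only a number. Over 52 such pairs, deviations from the group means correlated from −0.53 to 0.49 (median −0.0666, against 0.0377 over 102 other pairs), and 5 of 19 libraries correlated best with their own number. With a replicate block, 1 clock gene (Tef) was called in EMPA + PFD against untreated and 4 in untreated against control 9w, while the counts were 6 over all groups and 6, 5, 1 and 1 in control 9w against control 5w, the interaction of disease and week, HFpEF against control 5w and EMPA + PFD against control 9w. The shares of all genes called with the block are not given here, so these counts cannot be set against the background.

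Leaving out 1 library at a time gave 6 to 9 genes over all groups, 1 to 1 in HFpEF against control 5w, 4 to 8 in control 9w against control 5w, 0 to 7 in untreated against control 9w, 0 to 8 in EMPA + PFD against untreated, 0 to 4 against control 9w, 5 to 8 for the interaction of disease and week, and 0 to 0 in untreated against HFpEF, EMPA, PFD and the interaction of the drugs. The shares of all genes called moved as well. In untreated against control 9w the share was 0.0647% without control 9w replicate 2, beside 1.78% with all libraries. In EMPA + PFD against untreated it was 0.888% without EMPA + PFD replicate 2 and 15.4% without replicate 1, beside 12.1%. Not all shares are given here, so the ranges are not read as a result about the clock genes. Where 1 EMPA or PFD library was left, it was assumed to vary like the other groups. The difference of the arms in control 9w was 2.02 without Npas2 and Ciart, and moved by less than 1 SD in the other 27 values. Of the correlations with Arntl, Clock had 0.44 without the 2 farthest libraries and 0.43 without EMPA + PFD, Npas2 0.51 and 0.47, and 0.51 in the 14 libraries, Per1 0.27 in the 14, Per2 −0.61 and −0.55, Per3 −0.79 and Dbp −0.86 without EMPA + PFD, and Nr1d1 −0.56 without the 2 farthest. Depth limits Ciart most, which had 12 counts in its lowest library.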

Other observations

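Among genes known to follow daily rhythms in heart without being clock genes, Pdk4 and Lpin1 split the EMPA + PFD libraries as well. Of 14 such genes, all tested, 6 rose in EMPA + PFD against untreated and 0 fell in the quasi-likelihood test of edgeR, adjusted by Benjamini-Hochberg, led by Pdk4 (2.14), Lpin1 (1.72), Dgat2 (1.57) and Pik3r1 (1.36) on the log2 scale, with a median of 1.07 against −0.03 for all genes and 6.60% of all genes higher. Pdk4, a kinase that holds back the use of glucose, had 36.3, 23.7 and 26.9 CPM in control 5w, 55.2, 28.5 and 140.0 in HFpEF, 105, 153 and 93.3 in control 9w and 413, 124 and 346 in untreated. With treatment there were 507 and 302 CPM in EMPA, 932 and 609.6 in PFD and 443, 1791 and 1673 in EMPA + PFD. Replicates 2 and 3 of EMPA + PFD stood above all other libraries, and replicate 1 lay inside the range of EMPA and above untreated. Unlike the clock outputs, Pdk4 in control 9w lay below every other week 9 library except untreated replicate 2, though above every control 5w library. Lpin1 had 71.8, 174 and 214 CPM in EMPA + PFD and 62.2, 37.8 and 39.9 in untreated. The other counts of this list, higher and lower, were 1 and 1 in HFpEF against control 5w (20.0%), 5 and 1 in control 9w against control 5w (34.5% of all genes called), 6 and 0 in EMPA + PFD against control 9w (33.8%), 0 and 1 for the interaction of disease and week (20.0%), and 0 in untreated against control 9w or HFpEF, EMPA, PFD and the interaction of the drugs.

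Genes that respond to glucocorticoids, which Per1 does as well, were low in control 5w. Of 12 such genes, 9 rose and 0 fell in HFpEF against control 5w, 9 rose in control 9w against control 5w and 9 were negative for the interaction of disease and week, in the same test. Of all genes, 9.83% and 17.3% were higher in these comparisons and 10.2% were negative for the interaction. Sgk1, the most abundant, had 50.1, 61.4 and 61.3 CPM in control 5w, 250.8, 221 and 282 in HFpEF, 479, 536 and 330.2 in control 9w and 219.8, 229.8 and 275 in untreated, so that, like Per1, it was lower in control 5w than in any other library. It was also the 1 gene of the list that fell in untreated against control 9w. In EMPA + PFD against untreated 3 rose, Zbtb16 by 2.68 (standard error 0.59) on the log2 scale (adjusted p = 0.0157 in the same test), Pnpla2 (1.67) and Fkbp5 (1.56), beside 6.60% of all genes. Zbtb16, a zinc finger repressor, had 10.1, 106 and 95.4 CPM in EMPA + PFD, 42.2, 38.9 and 37.9 in control 9w and at most 18.04 CPM in the other groups. In EMPA + PFD against control 9w 1 gene was higher and 2 were lower (33.8% of all genes called), and 0 were called in untreated against HFpEF, EMPA, PFD and the interaction of the drugs.

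Of 11 immediate early genes, led by Dusp1, 8 rose in HFpEF against control 5w, 4 in control 9w against control 5w and 3 (Fosb, Nr4a1 and Jun) in untreated against control 9w, and 1 (Ier2) fell in EMPA + PFD against untreated. The shares of all genes were 9.83%, 17.3% and 0.589% higher and 5.52% lower in these comparisons. Nr4a1 rose in untreated against HFpEF (0.226% of all genes called), in EMPA + PFD against control 9w 4 were higher and 1 lower (33.8% of all genes called), the interaction of disease and week was negative for 2 (10.2% of all genes), and EMPA, PFD and the interaction of the drugs had 0. Of 10 genes that respond to body temperature, the cold-inducible RNA-binding genes Rbm3 and Cirbp rose in HFpEF against control 5w (0.82 and 0.45 on the log2 scale, all genes 9.83% higher) and in control 9w against control 5w (0.94 and 0.84, all genes 17.3% higher), were negative for the interaction (−1.24 and −0.58, all genes 10.2% negative), and Rbm3 was lower in EMPA + PFD than in control 9w (−0.77, all genes 16.6% lower). These 2 of 10 are near the background. Over all 7 groups 3 of the 10 were called by edgeR (all genes 50.3%), and in the other comparisons 0 were. Body temperature and sampling time are not given in the labels or in the methods.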
